A study of Mus musculus domesticus with 18 samples.

Results

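The livers of 3 wild male house mice from low altitude location A were compared with those of 6 mice from low altitude locations B and C, 3 from each. The 3 mice were taken by the location letter in the sample titles and made up 3 of the 18 arrays of the study. All mice were labelled male Mus musculus domesticus. The low altitude mice came from Lima, Peru, at 100 m, and the other 9 mice came from 3 locations, also lettered A, B and C, in La Paz, Bolivia, at 3600 m. Each mouse gave 1 Affymetrix mouse array of liver RNA. The strain field of the labels reads C57BL/6J for every mouse, while the titles, sources and design name wild mice, which was followed here. No treatment was named, and the labels hold neither age nor scan date. Location A is 1 trapping place, so the tests below measured the spread between mice of a place and not the spread between places.

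A trapping location differs from the next in the relatives caught there, in food, infection and housing, and in the time of capture. None of these was recorded in the labels, and they cannot be told apart here. The labels name no array batch either, and a batch that coincided with location A cannot be told apart from it. The liver is built mainly of hepatocytes, which secrete plasma proteins, make bile acids and clear drugs and hormones. Kupffer cells, sinusoidal endothelial cells, stellate cells and bile duct cells make up the rest, and fewer cells of a type cannot be told apart from less RNA per cell in whole liver RNA. An Affymetrix probe set is a group of short probes for 1 stretch of a transcript, and many genes have several. Levels are given as deposited log2 values, on which 1 unit is a 2-fold difference, and they can be compared between mice within a probe set but not between probe sets.

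Of 34945 probe sets that name 1 gene, 24 were called between location A and locations B and C. A probe set is called here where limma's adjusted p lay under 0.05. These were 0.0687% of the probe sets tested, 16 of them higher in location A (0.0458%) and 8 lower (0.0229%), and they came from 23 genes. Without low A mouse 2 the count was 13, and without low A mouse 3 it was 11. In a fit of the 9 low arrays alone 12 were called, 7 of them among the 24. With arrays weighted by quality 139 were called, 95 higher and 44 lower, with all 24 among them. For comparison, location B against location C gave 2 calls (0.00572%), at an unadjusted p under 0.05 for 1759 probe sets (5.03%). Location C against A and B gave 0 calls by limma, with 2011 probe sets at an unadjusted p under 0.05 (5.75%), and location B against A and C gave 5 (0.0143%). The share at an unadjusted p under 0.05 for location A was 7.19%, or 2511 probe sets. In 22 of the 24 called probe sets all 3 low A mice lay above, or all below, the 6 other low mice. Over all probe sets the mice lay apart in this way in 1275 (3.65%). The 24 were chosen by a test on these same values, which favours mice that lie apart, so nothing is read from the 22.

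Array medians averaged 5.28 ± 0.01 in location A and 5.30 ± 0.04 in the 6 other low mice (SD, n = 3 and n = 6). The deposited values came from RMA, which equalises the distribution of probe signals across arrays. Near-equal medians therefore do not show that the arrays or the RNA were alike. RNA integrity was read from the Actb controls, whose level at the 3 prime end exceeded that at the 5 prime end by 1.18 ± 0.15 and 1.23 ± 0.20 (exact two-sided permutation p = 0.69). Arrays of location A correlated at 0.9895 with each other on average, and at 0.9841 and 0.9856 with those of B and C. On average, low B arrays correlated at 0.9819 with each other, low C arrays at 0.9865, and low B with low C arrays at 0.9843. The correlations of low A with B and C thus lay near that of B with C. Hepatocyte markers gave a mean level of 13.55 to 13.75 in the low A mice and 13.29 to 13.76 in the others. The Y-linked gene Eif2s3y was between 7.57 and 7.99 in all 9 low mice.

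Low A mouse 1 and low B mouse 2 stood apart from the other low mice in some liver genes that differ between the sexes. Growth hormone released in pulses keeps these genes at male levels in males. Sult3a1, a female-biased sulfotransferase, lay at 12.95 in low A mouse 1 and 11.79 in low B mouse 2, and between 3.24 and 5.31 in the other 7 low mice. Hsd3b5, a male-biased steroid enzyme, lay at 4.96 and 4.82 in these mice and between 9.13 and 11.59 in the others. Cyp4a12a, also male-biased, lay at 3.75 and 7.21 in these mice and between 11.36 and 12.40 in the others. Cyp2b9, a female-biased gene, lay at 11.20 and 11.09, and between 4.71 and 7.60 in the others. Elovl3, also male-biased, did not set the 2 mice apart, at 4.21 and 4.34 beside 4.49 in low C mouse 3 and 5.21 in low C mouse 2. In the high mice, which enter the fit, Sult3a1 lay at 12.97 in high A mouse 4, 12.96 in high C mouse 1 and 12.27 in high C mouse 3, with Hsd3b5 at 5.02, 4.77 and 4.87. Cyp4a12a lay at 6.64, 7.55 and 11.48 in the same 3 high mice, beside a median of 11.84 over the 9 high mice. Hsd3b5 was also low in high A mouse 2, at 5.10, where Sult3a1 lay at 3.40. The median of Hsd3b5 over the 9 high mice was 6.40. The Y-linked genes did not set low A mouse 1 and low B mouse 2 apart: Kdm5d lay at 6.88 and 6.48, within the range of 6.41 to 6.99 of the 9 low mice. With both mice left out, a setting added after seeing the data, 22 probe sets were called, 13 of them among the 24, and all 24 kept their direction. The 11 that lost their call were those of Lipa, Ankrd33b, Smim7, Rps3, E330020D12Rik, Lhfpl2, Plet1os, Deptor, Nqo2, Gm17753 and Xaf1 (adjusted p from 0.0664 to 0.216).

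As markers of location A, 4 genes were taken that had been chosen with earlier results of these data known. Abhd18, of the alpha/beta hydrolase fold family, and Spg7, a subunit of a protease of the mitochondrial inner membrane, were lower in location A. Pgap6, a phospholipase that acts on GPI anchors, and Mtmr2, a lipid phosphatase of endosomes, were higher. Their tests are therefore given as a description.

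Abhd18 was 5.31-fold lower in location A than in B and C. The level at probe set 1455475_at was 4.12, 4.62 and 4.58 in the low A mice, 6.09, 7.23 and 6.86 in the low B mice, and 6.76, 7.07 and 7.08 in the low C mice. The 9 high altitude mice ranged from 5.72 to 7.03 with a median of 6.72. The 3 low A mice were therefore the lowest of all 18 and did not overlap with any other mouse. The log2 difference was -2.41 ± 0.22 (SE; adjusted p = 0.000107), and it was -2.29 against B (adjusted p = 0.000821) and -2.53 against C (adjusted p = 0.000806). The call held in every alternative that tested it. At a dimmer probe set of the gene, 1438283_at, the low A mice lay at 3.95, 4.23 and 3.95, again below all 15 others, whose lowest was 4.38; the difference of -0.59 ± 0.11 was not called (adjusted p = 0.0689). The third probe set, 1429966_at, leaned the other way, with a difference of 0.27 ± 0.12, overlapping mice and an adjusted p of 0.683. Probe sequences were not used here, so why probe sets of a gene differed was not tested.

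Abhydrolase domain proteins share a fold and act on varied lipids and esters. In gene lists each gene is represented by its brightest probe set. The 4 markers and the lists were chosen with earlier results known, so nothing is read from a marker's own call in its list. Of the 19 measured family members, Abhd18 alone was called, beside 0.055% of all 18193 genes. In this family 14 were above and 5 below 0, and the median difference was 0.07, beside 0.00 over all genes. Abhd6, which breaks down the endocannabinoid 2-arachidonoylglycerol, had the next smallest p. Its level was 8.70, 5.44 and 8.88 in the low A mice and at 9.33 or above, with a median of 9.66, in the 6 other low mice. All 3 low A mice were below the other 15, and low A mouse 2 was by far the lowest. With this spread the 4-fold lower mean (SE 0.52 on the log2 scale) was not called (adjusted p = 0.281). Abhd14b differed by 0.43 ± 0.26 with overlapping mice.

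Pgap6 was higher in location A at both of its bright probe sets. Probe set 1418344_at gave 8.68, 8.61 and 8.65 in the low A mice, 7.15, 6.76 and 7.15 in low B and 6.51, 7.12 and 7.14 in low C. The high altitude mice spanned 7.02 to 9.05 with a median of 7.85. They were thus tightly grouped above the other low mice, but inside the range of the high mice. The log2 difference was 1.67 ± 0.18 (adjusted p = 0.00061), a 3.19-fold higher level. Probe set 1460377_a_at gave 8.88, 8.62 and 8.97 against 7.17 to 7.49, a difference of 1.47 ± 0.14 (adjusted p = 0.000108). Against B alone the adjusted p values of the pair were 0.00412 and 0.000738, and against C alone 0.00299 and 0.00141. Both calls held in every alternative that tested it. The other 2 probe sets of Pgap6, 1442563_at and 1438472_at, showed differences of -0.10 ± 0.13 and -0.07 ± 0.08, with overlapping mice.

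GPI anchors are glycolipids that fix proteins to the outer face of the cell membrane, and Pgap6 cuts some proteins free by acting on the lipid. Of 25 measured genes for making and remodelling these anchors, Pgap6 alone was called, beside 0.055% of all genes. In this list 16 lay above and 9 below 0, and the median was 0.09. Pigo, which adds ethanolamine phosphate to the growing anchor, lay at 7.71, 7.91 and 7.68 in the low A mice and between 8.02 and 8.29 in the other low mice. The groups did not overlap, but the difference of -0.40 ± 0.11 was not called (adjusted p = 0.354). Piga, the catalytic subunit of the first step, differed by -0.65 ± 0.27 (adjusted p = 0.624) with overlapping mice.

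Mtmr2 was 3.67-fold higher in location A than in B and C. Its level at probe set 1425459_at was 7.37, 7.06 and 6.67 in low A, 4.54, 5.55 and 4.46 in low B, and 5.14, 6.03 and 5.25 in low C. The 9 high mice lay between 4.26 and 4.76, with a median of 4.46. All 3 low A mice exceeded the other 15. The log2 difference was 1.87 ± 0.23 (adjusted p = 0.00201), and it was 2.19 against B (adjusted p = 0.0021) and 1.56 against C (adjusted p = 0.0408). In a fit of the 9 low arrays alone the adjusted p was 0.0644; leaving out any of the 9 low mice kept the call. The other probe set, 1425460_at, gave 6.97, 6.35 and 6.28 against 3.86 to 5.89 in B and C. There too the low A mice were above all 15 others, with a difference of 1.57 ± 0.36 that was not called (adjusted p = 0.171).

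Mtmr2 belongs to the myotubularins, which remove the 3-phosphate of phosphoinositides on endosomes. Mtmr2 alone was called among the 17 measured members, beside 0.055% of all genes. In this family 9 were above and 8 below 0, and the median was 0.00. Mtmr7, a close relative, lay at 6.47, 7.01 and 6.96 in the low A mice and at 7.02 to 8.02 in the other low mice. The low A mice were all lower by a narrow margin, and the difference of -0.69 ± 0.18 was not called (adjusted p = 0.277). Mtmr14 differed by 0.12 ± 0.12.

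Spg7, which encodes paraplegin, was 2.43-fold lower in location A. Probe set 1427166_a_at read 6.83, 5.94 and 5.83 in the low A mice, 7.32, 7.60 and 7.34 in low B, and 7.25, 7.53 and 7.83 in low C. The high mice ranged from 7.37 to 7.80 with a median of 7.48. All 3 low A mice were below the other 15, with mouse 1 nearest to them. The log2 difference was -1.28 ± 0.19 (adjusted p = 0.0106). Against C it was called (adjusted p = 0.0321) and against B it was not (adjusted p = 0.0507). The call was lost without low A mouse 2 (adjusted p = 0.0906) or mouse 3 (adjusted p = 0.117), and with the 9 low arrays alone (adjusted p = 0.107). The other Spg7 probe set, 1441585_at, showed no such pattern, with a difference of -0.02 ± 0.10 and overlapping mice.

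Paraplegin joins Afg3l2 in the m-AAA protease, which degrades unfolded inner membrane proteins and is held by a ring of prohibitins. Spg7 alone was called among 16 measured mitochondrial proteases and prohibitins, beside 0.055% of all genes. In this list 9 were above and 7 below 0, and the median was 0.13. Its partner Afg3l2 differed by -0.02. Phb2, a prohibitin, lay at 11.26, 10.99 and 11.13 in the low A mice and at 10.50 to 10.95 in the others. These groups did not overlap, but the difference of 0.34 ± 0.14 was not called (adjusted p = 0.635). Parl, a protease of the same membrane, differed by 0.25 ± 0.15.

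**Figure D1:**
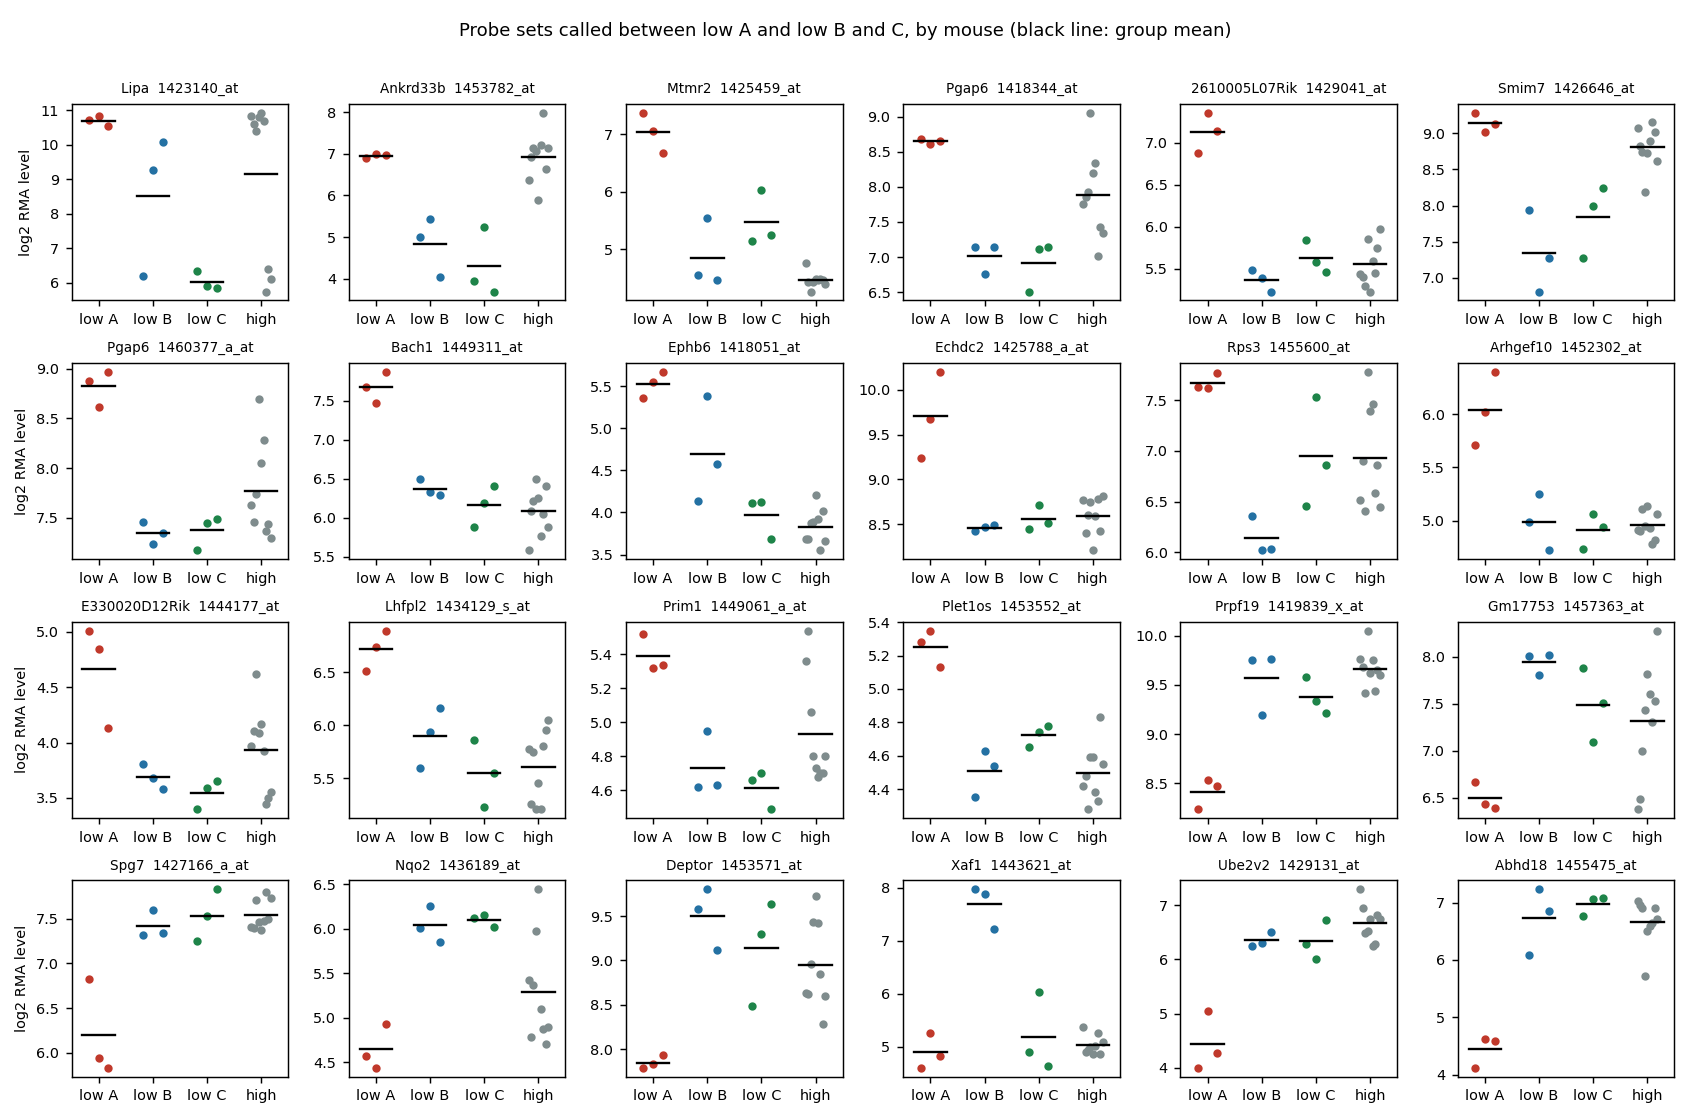
Log2 level of each of the 24 called probe sets in each mouse, with low altitude locations A, B and C and the 9 high altitude mice along the horizontal axis; each point is a mouse and each black line a group mean. The 3 low A mice of Abhd18, 1455475_at, sit between 4.12 and 4.62, below all 15 others, and the 3 of Mtmr2, 1425459_at, sit between 6.67 and 7.37, above all others.

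Among the other called genes, the largest difference was that of Lipa, the acid lipase that breaks down cholesteryl esters and triglycerides in lysosomes. Probe set 1423140_at read 10.71, 10.85 and 10.54 in low A, 6.19, 9.27 and 10.09 in low B, and 6.35, 5.91 and 5.84 in low C. In the high mice it was at 10.40 to 10.92 in locations A and B and at 5.75, 6.4 and 6.11 in location C. The level thus fell into a high and a low range that followed locations, except in low B, which held both. The difference of 3.42 ± 0.53 from B and C (adjusted p = 0.0151) came with a call against C (adjusted p = 0.00611) and none against B (adjusted p = 0.387). It was lost without any of the 3 low A mice (adjusted p from 0.0806 to 0.104), in the fit of the 9 low arrays (adjusted p = 0.158) and with robust eBayes moderation (adjusted p = 0.0551). The 2 other Lipa probe sets, 1423141_at and 1450872_s_at, differed by 0.17 ± 0.16 and -0.01 ± 0.14 and did not share the pattern.

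Ankrd33b, an ankyrin repeat gene, was 5.26-fold higher in location A. Its values were 6.89, 7.0 and 6.97 in low A, 5.01, 5.44 and 4.04 in low B, and 3.94, 5.25 and 3.69 in low C. The high mice lay between 5.90 and 7.98, so locations B and C were the low ones among the 18 mice. The difference was 2.39 ± 0.39 (adjusted p = 0.02), called against C (adjusted p = 0.0408) but not against B (adjusted p = 0.171). It was lost without low A mouse 1, 2 or 3 (adjusted p from 0.0806 to 0.148), with mouse number as a block (adjusted p = 0.0556), with robust moderation (adjusted p = 0.0551) and in the fit of the 9 low arrays (adjusted p = 0.0641). A second probe set, 1453287_at, leaned the same way by 1.81 ± 0.41 with the low mice apart (adjusted p = 0.169), and the third, 1431308_at, by 0.12 ± 0.12.

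Bach1, a repressor that haem releases from the promoters of antioxidant and iron genes, was 2.65-fold higher. Its values at 1449311_at were 7.68, 7.47 and 7.87 in low A, 6.49, 6.33 and 6.29 in low B, and 5.88, 6.19 and 6.4 in low C, and the high mice lay between 5.58 and 6.49. The low A mice were above all 15 others, by a difference of 1.41 ± 0.18 (adjusted p = 0.00301) that was called against B and against C and held in every alternative that tested it. A brighter Bach1 probe set, 1440831_at, differed by -0.23 ± 0.23, with overlapping mice. Hmox1, the best known gene under Bach1 control, differed by 0.05. Of 15 measured haem and iron genes none was called, 2 had an unadjusted p under 0.05 (beside 7.16% of all genes), and the median was 0.08.

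The transcript 2610005L07Rik was 3.08-fold higher, at 6.88, 7.35 and 7.14 in low A against 5.23 to 5.84 in the other low mice and 5.23 to 5.97 in the high mice. Its difference of 1.62 ± 0.15 (adjusted p = 0.000107) was called against B and against C and held in every alternative that tested it. Of its 7 other probe sets, 3 differed by 0.61 to 0.78 with the low mice apart. At 1440387_at the low A mice lay below all 15 others, by -0.31 ± 0.12 (adjusted p = 0.597). The rest lay between -0.22 and 0.01. Location A was thus higher at part of the probe sets only, and leaned lower with the mice apart at 1440387_at.

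A further 5 named genes with a known or predicted protein were higher in location A by 1.98 to 2.93-fold at their called probe sets. Smim7, a small membrane protein, lay at 9.28, 9.02 and 9.13 in low A and at 6.81 to 8.25 in B and C (1.55 ± 0.24, adjusted p = 0.0151). Echdc2, a mitochondrial relative of enoyl-CoA hydratase, lay at 9.24, 9.67 and 10.20 against 8.42 to 8.72 (1.19 ± 0.18, adjusted p = 0.0127), above all 15 other mice. Arhgef10 lay at 5.71, 6.02 and 6.4 against 4.72 to 5.25 (1.09 ± 0.14, adjusted p = 0.00368), also above all others. Arhgef10 was called against both B and C and lost its call only in the fit of the 9 low arrays (adjusted p = 0.0644). Rps3, of the small ribosomal subunit, lay at 7.63, 7.62 and 7.77 at 1455600_at against 6.02 to 7.53 (1.13 ± 0.19, adjusted p = 0.0267). The mice of high location B lay near low A there, at 7.78, 7.39 and 7.46. The bright Rps3 probe set 1435151_a_at, at 12.55 ± 0.10 in low A and 12.57 ± 0.06 in B and C, differed by -0.01, so the call did not extend to it. Lhfpl2, a tetraspan membrane protein, lay at 6.51, 6.74 and 6.89 at 1434129_s_at against 5.23 to 6.16 (0.99 ± 0.16, adjusted p = 0.02), above all 15 others. The brightest Lhfpl2 probe set, 1454847_at, differed by -0.03 ± 0.14. The others, 1443185_at and 1434130_at, differed by -0.01 ± 0.17 and 0.30 ± 0.12, with overlapping mice at each of them.

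Of these 5 calls, all but that of Arhgef10 were lost without 1 or more single low A mice. Smim7 lost its call without low A mouse 1, 2 or 3 (adjusted p from 0.0725 to 0.115). Echdc2 lost it without mouse 2 (adjusted p = 0.0725) or mouse 3 (adjusted p = 0.104), and Lhfpl2 likewise (adjusted p = 0.113 and 0.221). Rps3 lost it without any low A mouse (adjusted p from 0.0947 to 0.223) and without low B mouse 2, low B mouse 3 or low C mouse 3 (adjusted p from 0.0572 to 0.0645). With mouse number as a block, Smim7, Rps3 and Lhfpl2 had adjusted p values of 0.0556, 0.0583 and 0.0556. The transcript E330020D12Rik, at 5.01, 4.84 and 4.13 in low A and 3.40 to 3.81 in B and C (1.04 ± 0.16, adjusted p = 0.0151), lost it without mouse 1 (adjusted p = 0.0947) or mouse 2 (adjusted p = 0.119).

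Another 3 called probe sets lay outside the rule for named genes and were chosen after their values were seen. Ephb6, an Eph receptor without kinase activity, was higher by 1.20 ± 0.20 (adjusted p = 0.0239), but low B mouse 2 at 5.38 lay above low A mouse 1 at 5.36. Prim1, the catalytic subunit of DNA primase, was higher by 0.72 ± 0.11 (adjusted p = 0.0131), and its other probe set, 1418369_at, leaned the same way by 0.83 ± 0.16 (adjusted p = 0.0905). At the called Prim1 probe set the mice of high location A lay at 5.36, 5.54 and 5.06, beside 5.32 to 5.52 in low A. Plet1os differed by 0.64 ± 0.11 (adjusted p = 0.0239). Each lost its call without any of the 3 low A mice, with adjusted p from 0.0701 to 0.221 for Ephb6, 0.0602 to 0.0836 for Prim1 and 0.0794 to 0.164 for Plet1os. Ephb6 also lost it without low B mouse 3 (adjusted p = 0.0621) or low C mouse 3 (adjusted p = 0.0506), and Plet1os without low B mouse 1 or low C mouse 1 (adjusted p = 0.0592 each).

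Besides Abhd18 and Spg7, 6 genes were called lower in location A. Ube2v2, a partner of the ubiquitin-conjugating enzyme Ube2n in building ubiquitin chains, was 3.76-fold lower at 1429131_at. It lay at 4.00, 5.04 and 4.27 in low A, 6.24, 6.31 and 6.51 in low B, and 6.29, 6.00 and 6.73 in low C, and the high mice lay between 6.25 and 7.29. The low A mice were below all 15 others, by -1.91 ± 0.23 (adjusted p = 0.00162), called against B and against C and in every alternative that tested it. The other probe sets of Ube2v2 went both ways with the mice apart: 1417984_at differed by -0.53 ± 0.14 (adjusted p = 0.301) and the brighter 1417983_a_at by 0.42 ± 0.12 (adjusted p = 0.345).

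Deptor, a protein that binds and inhibits mTOR, was 2.76-fold lower at 1453571_at. It lay at 7.79, 7.83 and 7.93 in low A, 9.58, 9.80 and 9.12 in low B, and 8.49, 9.30 and 9.63 in low C, with the high mice at 8.28 to 9.72. Location A again held the lowest 3 of the 18 mice, by -1.47 ± 0.21 (adjusted p = 0.00895). Without low A mouse 1, 2 or 3 the adjusted p was 0.0547 to 0.0653. The 5 other Deptor probe sets differed by -0.11 to 0.22 with overlapping mice.

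Nqo2, a quinone reductase, was 2.68-fold lower at 1436189_at. It lay at 4.57, 4.44 and 4.93 in low A and at 5.85 to 6.25 in the other low mice (-1.42 ± 0.22, adjusted p = 0.0151), and 4 of the 9 high mice lay in the low A range. The call was lost without low A mouse 1 (adjusted p = 0.0806) or mouse 2 (adjusted p = 0.111). A brighter Nqo2 probe set, 1449983_a_at, was not called and leaned the other way, at 9.87 ± 0.09 in low A and 9.30 ± 0.24 in B and C (adjusted p = 0.339). The level of this gene in location A therefore differed in sign between its probe sets.

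Prpf19, a ubiquitin ligase of the spliceosome, was 2.09-fold lower at 1419839_x_at, at 8.24, 8.53 and 8.47 in low A and 9.19 to 9.76 in B and C. The difference of -1.06 ± 0.15 (adjusted p = 0.00814) placed the low A mice below all 15 others. Its adjusted p was 0.0613 without low A mouse 1 and 0.0527 without mouse 3. Of its 4 other probe sets, 1449635_at leaned the same way with the mice apart (-0.48 ± 0.14, adjusted p = 0.382), and the rest differed by -0.05 to 0.25. Gm17753 was lower by -1.23 ± 0.21 (adjusted p = 0.0284), at 6.67, 6.43 and 6.39 against 7.09 to 8.02. Its call was lost without any low A mouse (adjusted p from 0.0806 to 0.238) and without low B mouse 1 or 3 or low C mouse 1 or 3 (adjusted p from 0.0576 to 0.0699). It was also lost with the block (adjusted p = 0.0535).

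**Figure D2:**
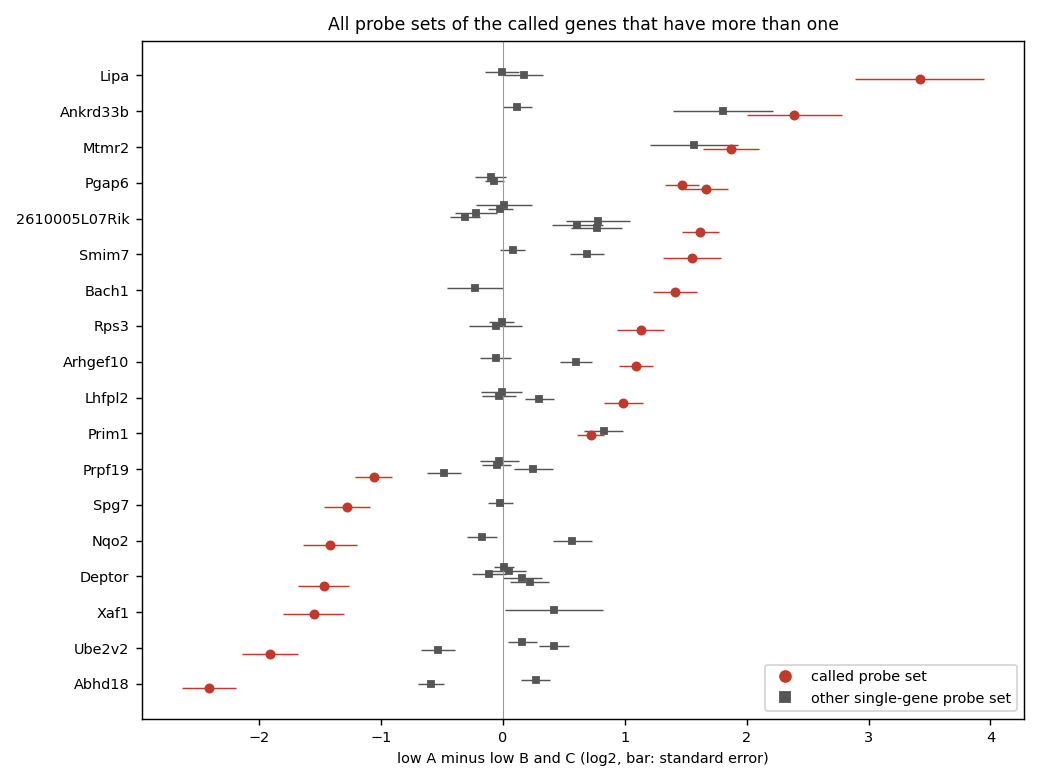
Log2 difference between low location A and low locations B and C at each single-gene probe set of the 18 called genes that have more than 1; red circles are called probe sets, grey squares the others, and bars are standard errors. Both probe sets of Mtmr2 and of Prim1 lie on the same side, at 1.57 and 1.87 and at 0.72 and 0.83, while those of Deptor, Lipa and Rps3 lie away from 0 at 1 probe set each.

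Of the 23 called genes, 18 had another single-gene probe set. These 44 other probe sets included 22 on the same side of 0 as the called one. At an unadjusted p under 0.05, which 7.19% of all probe sets had, 13 of the 44 were on the same side and 4 on the opposite side. These 4 belonged to Abhd18, 2610005L07Rik, Nqo2 and Ube2v2. In a fit of 1 probe set per gene, the brightest, 10 of 18193 genes were called (0.055%).

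Locations B and C were also set against A in turn, with the same low A mice in both. Against B, 21 probe sets were called (0.0601%), 13 higher in A (0.0372%) and 8 lower (0.0229%). That split turned to 4 higher and 11 lower in the fit of the 9 low arrays, to 13 and 23 without low B mouse 2, and to 11 and 18 without low A mouse 1 and low B mouse 2. Against C, 17 were called (0.0486%), 12 higher (0.0343%) and 5 lower (0.0143%); with arrays centred on bright probe sets this split was 9 to 10, and after quantile normalization 12 to 10. Leaving out single mice gave from 9 calls (without low A mouse 3) to 36 (without low B mouse 2) against B, with 12 without low B mouse 1. Against C it gave from 7 (without low A mouse 3) to 27 (without low B mouse 2), with 9 without low A mouse 2 and 10 without low C mouse 3. Both comparisons called 8 probe sets (0.0229%): those of Abhd18, Ube2v2, Mtmr2, Pgap6 (2), 2610005L07Rik, Bach1 and Arhgef10.

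**Figure D3:**
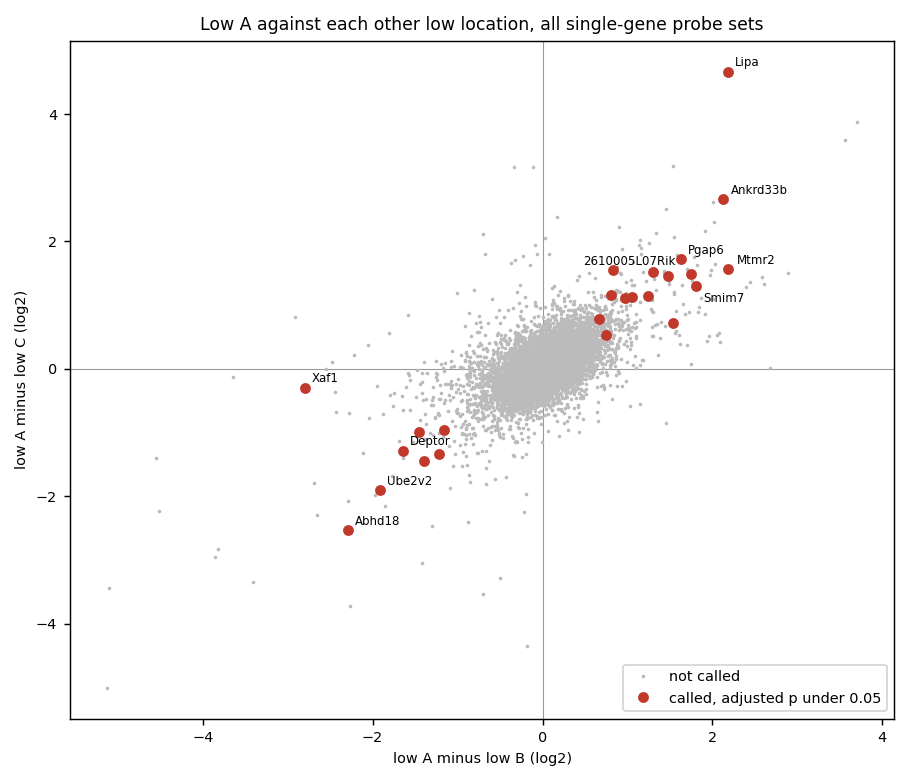
Log2 difference of low location A from B (horizontal) against that from C (vertical) for the 34945 single-gene probe sets; red points were called against B and C together. Both axes use the same low A mice; Xaf1 lies at -2.80 from B but -0.30 from C, and Lipa at 2.18 and 4.67.

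Xaf1, an interferon-inducible partner of the apoptosis inhibitor XIAP, was called at 1443621_at with its value set by location B. The gene was chosen after its values were seen. It lay at 4.60, 5.26 and 4.82 in low A, 7.97, 7.89 and 7.22 in low B, and 4.89, 6.03 and 4.64 in low C. The difference was -2.80 from B (adjusted p = 0.000585) but -0.30 from C (adjusted p = 0.894), and B exceeded C by 2.5 (adjusted p = 0.00432). The adjusted p for A against B and C, 0.02, became 0.132 without low A mouse 1, 0.17 without low A mouse 3 and 0.0504 without low B mouse 1. A brighter Xaf1 probe set, 1443698_at, did not share this pattern. Its means were 7.97 ± 0.39 in low A, 7.34 ± 0.75 in low B and 7.77 ± 0.43 in low C, with overlapping mice. Crtap, a partner of a collagen-modifying enzyme, had the form of Xaf1 at 1443621_at among the low mice. It was not called for A against B and C. It lay at 5.95 to 6.2 in low A, 7.78 to 8.54 in low B and 5.67 to 6.17 in low C. The 9 high mice lay at 4.86 to 5.37 for Xaf1 at 1443621_at, inside the range of low A and C. For Crtap they lay at 7.15 to 8.48, above every low A and low C mouse. The difference of Crtap from B was -2.22 ± 0.29 (adjusted p = 0.00414), and B exceeded C by 2.43 (adjusted p = 0.00432). These 2 were the only calls of B against C; without low C mouse 3 that comparison had 0 calls by limma, and without low B mouse 2 it had 9. It had 4, 5 and 6 calls without low B mouse 1, low C mouse 1 and low C mouse 2.

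The remaining probe sets called against a single location were also chosen after their values were seen. Against B these were Nek3, Csnk2a1, Zfp871, Crtap and Saa3, and against C they were Creb3l2 and Sdc4. Saa3, an acute phase protein of macrophages and other cells, lay at 9.77, 9.09 and 8.82 in low A, 11.56, 11.77 and 11.79 in low B, and 8.49, 9.0 and 9.88 in low C. Low B was the location apart among the low locations: low A minus low B was -2.48 ± 0.43 (adjusted p = 0.0438), and low A minus low C was 0.10 ± 0.43. Sdc4, a heparan sulfate carrier of the hepatocyte surface, lay at 11.18, 11.15 and 11.18 in low A, 11.32, 12.63 and 12.16 in low B and 12.79, 13.37 and 12.33 in low C. The low A mice were the lowest of the 9 low mice, with a difference of -1.66 ± 0.28 from C (adjusted p = 0.0408) and -0.87 ± 0.28 from B (adjusted p = 0.523).

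The high altitude mice are set beside the low mice as a description, since the 24 probe sets were chosen for a low A mean away from B and C and nothing is read from these counts. For 18 of the 24 called probe sets the mean of the 9 high mice was nearer to the low B and C mean, and for 6 it was nearer to the low A mean. In 12 probe sets the low A mice lay beyond all 15 others, 7 above and 5 below. Over all 34945 probe sets this was so for 233 (0.667%). The 6 nearer to low A were those of Lipa, Ankrd33b, Pgap6 at 1418344_at, Smim7, Nqo2 and Xaf1.

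Several liver genes differed more than most of those called, but with a spread between mice that left them uncalled; the genes of this paragraph were chosen after their values were seen. Scara5, a receptor that takes up ferritin, lay at 4.59, 5.17 and 4.59 in low A and between 7.95 and 11.24, with a median of 10.06, in B and C. The high mice ranged from 5.43 to 11.21, so the low A mice were the lowest of the 18. The log2 difference was -5.07 ± 1.03 (adjusted p = 0.0993). Nox4, an NADPH oxidase that makes hydrogen peroxide, lay at 3.88, 4.44 and 5.47 in low A and 5.51 to 9.31 in B and C (-3.38 ± 0.96, adjusted p = 0.354). Nxn, a thioredoxin relative, was tightly grouped in low A at 7.73, 7.72 and 7.73, against 5.80 to 6.75 in B and C (1.69 ± 0.35, adjusted p = 0.104). It also lay above all 9 high mice, whose highest was 7.53. Rps6 at 1416142_at was split within location A, at 9.87, 9.52 and 6.83, and was between 6.35 and 6.74 in B and C (2.16 ± 0.43, adjusted p = 0.0905).

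Sult1e1 and Cyp2b10, of hormone and drug clearance, also had large differences without a call. Sult1e1, which inactivates oestrogens by sulfation, lay at 6.43, 5.91 and 5.89 in low A, 11.38, 11.11 and 11.04 in low B, and from 8.11 to 10.46 in low C. The groups did not overlap and the difference was -4.27 ± 0.99, but high mice covered 4.74 to 11.91 and the adjusted p was 0.174. Cyp2b10, the main target of the drug receptor CAR, lay at 8.09, 6.10 and 6.10 in low A and 8.41 to 11.41 in B and C (-3.33 ± 0.98, adjusted p = 0.387). The high mice spanned 4.81 to 11.85 for Cyp2b10 with a median of 6.55, and 7 of the 9 lay below the B and C range. Aldh1a7 differed by -0.51 ± 0.22 with the mice apart. In the list of 18 measured CAR, PXR and AHR genes 0 were called by limma, 4 had an unadjusted p under 0.05 (beside 7.16% of all genes), all lower; 8 lay above and 10 below 0 with a median of -0.03.

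The growth hormone and IGF genes had 4 of 12 measured members at an unadjusted p under 0.05, beside 7.16% of all genes, and 0 calls. Igfals and Igfbp3 encode proteins that hold IGF1 in a long-lived complex in blood. Igfals lay at 8.48, 9.38 and 9.04 in low A and between 7.35 and 8.07 in B and C, a difference of 1.29 ± 0.27 (adjusted p = 0.119). Igfbp3 lay at 9.4, 8.58 and 8.84 against 6.89 to 7.93, a difference of 1.41 ± 0.37 (adjusted p = 0.291). Both sets of low A mice were above all 6 other low mice. Igfbp1, which sequesters IGF1 in fasting, lay at 12.71, 12.20 and 11.83 against 12.61 to 13.57 (-0.87 ± 0.31, adjusted p = 0.529), with overlap. The list median was 0.05.

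**Figure D4:**
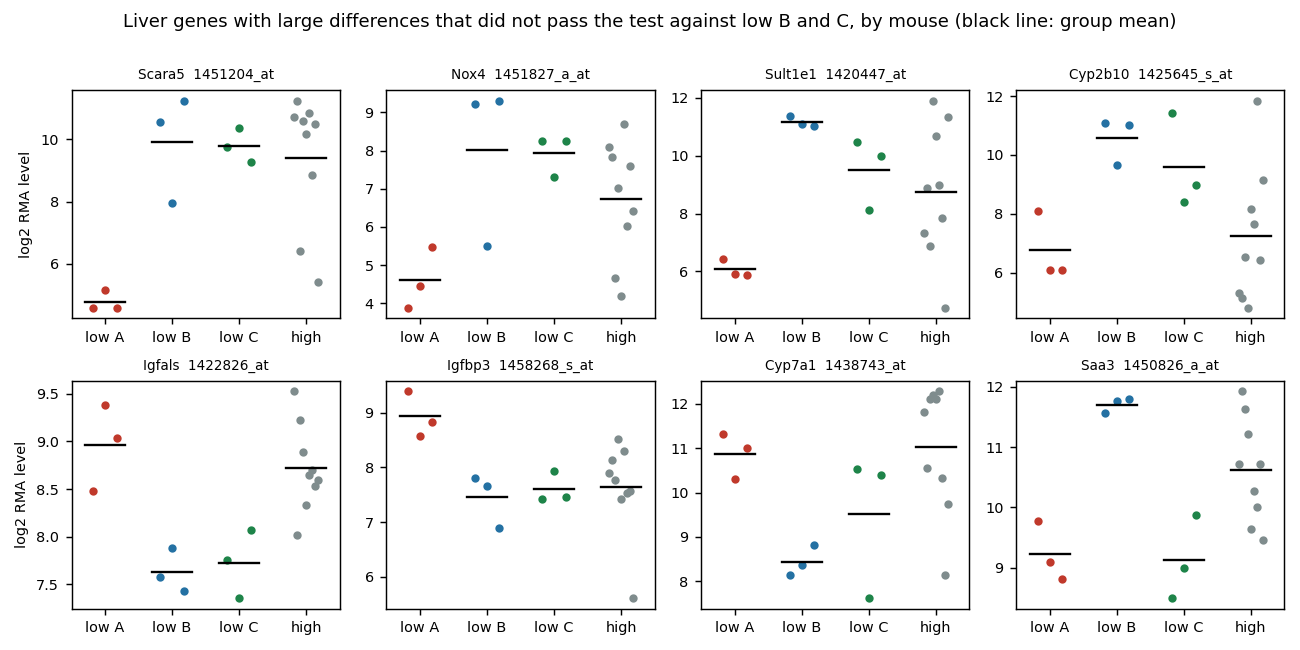
Log2 level by mouse of 8 liver genes not called between location A and locations B and C, in the layout of low A, low B, low C and high altitude mice; points are mice and black lines group means. Scara5 and Sult1e1 lie at 4.59 to 6.43 in the low A mice and at 7.95 to 11.38 in the low B and C mice, and Saa3 is highest in low B among the low locations.

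Several bile acid and fat genes lay above 0 in location A without a call. Cyp7a1, the rate-limiting enzyme of bile acid synthesis, lay at 11.32, 10.31 and 11.01 in low A and 7.61 to 10.54 in B and C (1.90 ± 0.56, adjusted p = 0.39). Cyp8b1, which directs synthesis to cholic acid, differed by 1.48 ± 0.55 and Nr1h4, the bile acid receptor FXR, by 0.50 ± 0.18. Of 14 measured bile acid genes these 3 had an unadjusted p under 0.05, beside 7.16% of all genes, and the median was 0.09. Among 20 fatty acid oxidation and PPAR alpha targets 19 lay above 0, beside 48.6% of all genes, with a median of 0.22. Of the 20, 3 had an unadjusted p under 0.05, again beside 7.16% of all genes: Fgf21, a fasting hormone of liver (0.68 ± 0.26), Vnn1, a pantetheinase (1.84 ± 0.80), and Hadha, of mitochondrial beta oxidation (0.49 ± 0.22). The mean level of that list was 10.83 to 10.86 in the low A mice and 9.72 to 11.09 in the others, so the low A mice lay inside the wider range of B and C. Cholesterol synthesis genes had a median of 0.45, 14 of 16 above 0, and 0 at an unadjusted p under 0.05. That median was 0.22 without low A mouse 1 and low B mouse 2.

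The sex-biased lists depended on those same mice. The median of 10 female-biased genes was 1.13, and 0.12 without both mice; the median of 10 male-biased genes was -0.42, and -0.16 without both. No member was called. The largest support among the female-biased genes was for Cyp17a1, a steroid 17-alpha-hydroxylase, at 12.05, 11.25 and 11.21 in low A (1.34 ± 0.46, adjusted p = 0.499). It was low in B (8.82 ± 1.05) and alike in A (11.50 ± 0.47) and C (11.50 ± 0.51).

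**Figure D5:**
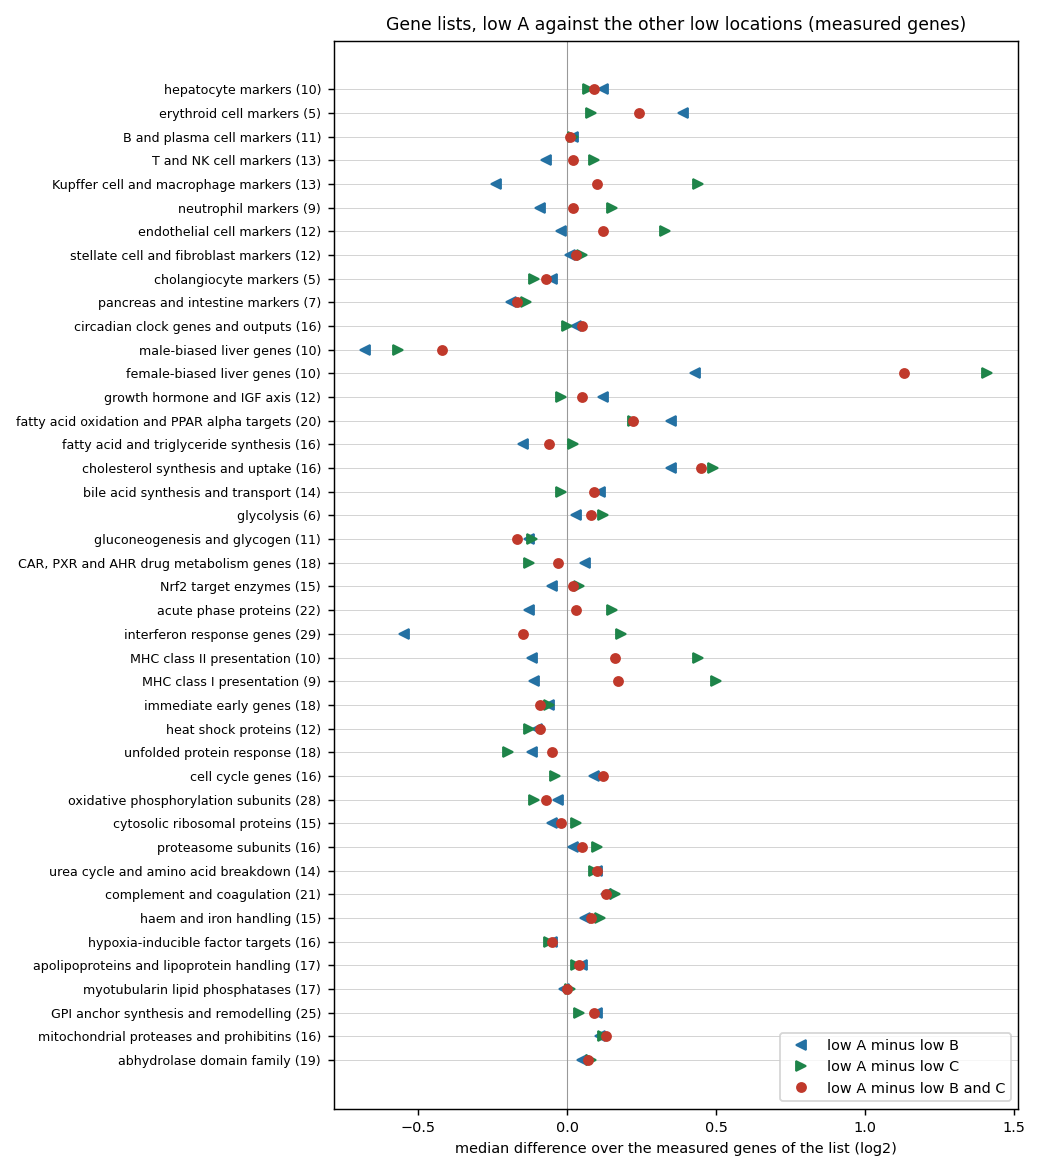
Median log2 difference of low location A from B (blue), from C (green) and from B and C together (red) over the measured genes of each of 42 lists, with the number of genes in brackets. All but 5 of the medians against B and C lie between -0.17 and 0.17, beside 0.00 for all genes; the female-biased list lies at 1.13, and the interferon and MHC class I lists lie on opposite sides of 0 against B and C.

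Immune lists differed in direction between the references. The interferon response list had a median of -0.55 against B and 0.18 against C, and of 29 members 0 were called by limma and 0 had an unadjusted p under 0.05. The MHC class I list gave -0.11 and 0.50, and the MHC class II list -0.12 and 0.44, with 0 calls in each and 1 and 0 members at an unadjusted p under 0.05. Acute phase proteins gave -0.13 and 0.15, where Saa3 and Lcn2, a siderophore-binding protein, had an unadjusted p under 0.05 at -1.19 ± 0.37 and -1.40 ± 0.49. The Kupffer cell and macrophage list gave -0.24 and 0.44; its member Marco, a scavenger receptor, lay at 7.11, 6.70 and 6.72 in low A and 7.22 to 9.94 in B and C (-1.48 ± 0.49, adjusted p = 0.472). By median, low A lay between low B, the higher, and low C, the lower, in each of these lists. Against B and C together the interferon median was -0.15, and it turned to 0.15 without low A mouse 1 and low B mouse 2; the Kupffer median turned from 0.10 to -0.08 and the acute phase median from 0.03 to -0.09.

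The mean levels of the marker lists of other cell types overlapped between low A and the other low mice. The mean level of the Kupffer list was 9.07 to 9.36 in low A and 8.65 to 9.80 in B and C, and that of the T and NK list 5.49 to 5.56 and 5.30 to 6.04. Endothelial markers had 11 of 12 members above 0, beside 48.6% of all genes. Their median was -0.02 against B and 0.33 against C. Their mean level was 7.67 to 7.79 in low A and 7.19 to 7.71 in B and C. Lyve1, of sinusoidal endothelium, differed by 1.22 ± 0.48 and Stab1 by 0.51 ± 0.23, neither called. Stellate cell markers had a median of 0.03, with 8 of 12 above 0, and overlapping mean levels. The mice lay apart in 2 of the 12, beside 3.85% of all genes. These were Lum, a matrix proteoglycan, and Acta2, smooth muscle actin, both lower (-0.89 ± 0.24 and -0.51 ± 0.20, adjusted p = 0.301 and 0.597). Erythroid, neutrophil, B cell, bile duct, and pancreas and intestine lists had medians between -0.17 and 0.24 with 0 calls. The part of cell composition in the called genes was not tested.

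The remaining lists had medians from -0.17 to 0.13. Clock genes had a median of 0.05, hypoxia-inducible factor targets -0.05, oxidative phosphorylation subunits -0.07, ribosomal proteins -0.02, proteasome subunits 0.05, heat shock proteins -0.09, the unfolded protein response -0.05, immediate early genes -0.09 and apolipoproteins 0.04. Glycolysis had 0.08, gluconeogenesis and glycogen -0.17, fatty acid and triglyceride synthesis -0.06, Nrf2 target enzymes 0.02, cell cycle genes 0.12, and urea cycle and amino acid breakdown 0.10. None of their members was called at the brightest probe set. Without low A mouse 1 and low B mouse 2 the median was -0.28 for fatty acid and triglyceride synthesis, with 13 of 16 genes below 0, -0.27 for gluconeogenesis and glycogen, and -0.11 for cell cycle genes, whose sign turned. Among complement and coagulation genes, 16 of 21 lay above 0, beside 48.6% of all genes. Proc, the protein C precursor, lay at 12.51, 12.75 and 12.72 in low A and 12.15 to 12.48 in B and C (0.34 ± 0.10, adjusted p = 0.395). Proc and F2, prothrombin, were among 4 of the 21 whose low A mice all lay above the others, beside 2.33% of all genes.

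The called genes were not next to each other in the genome. In RefSeq gene order none of the 23 lay within 5 measured genes of another. Of their 230 uncalled neighbours within 5 genes, 20 had an unadjusted p under 0.05 (8.7%, beside 7.16% of all genes), and in 10 the mice lay apart (4.35%, beside 3.85%). Immediate neighbours with mice apart were Nme4 beside Pgap6 (0.51 ± 0.11, adjusted p = 0.129) and Cep57 beside Mtmr2 (0.39 ± 0.14, adjusted p = 0.53). Nme4 is a mitochondrial nucleoside diphosphate kinase. Atpsckmt, 5 genes from Ankrd33b, had the smallest p of these neighbours, with a difference of 1.19 ± 0.24 (adjusted p = 0.0905).

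Just outside the threshold lay Syngr1, a synaptic vesicle protein, at -0.87 ± 0.16 (adjusted p = 0.0594), and Csnk2a1, the catalytic subunit of casein kinase 2, at 0.62 ± 0.11 (adjusted p = 0.0641). Just inside it were Gm17753 and Rps3, with adjusted p values of 0.0284 and 0.0267. The median standard error of a difference between location A and the other 2 was 0.127, and the number of mice limits the precision.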

How the data were processed

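Liver RNA of 18 mice was measured on 1 Affymetrix array each. The deposited log2 values came from RMA, run by the authors with affy in R per the submitters' processing notes, with no version given in the sources used here. RMA subtracts background, equalises the distribution of probe signals across arrays and combines the probes of a set, which compresses weak levels towards a floor. No detection calls or scan dates were used.

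GEO's platform annotation gave 1 gene symbol to 34945 of 45101 probe sets and several to 932, which were left out with 9160 unnamed and 64 control probe sets. The RefSeq gene table (GRCm38.p6) served for names and gene order only, and no coordinates or sequences were used. No filter on dim probe sets was applied.

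All 18 arrays entered a limma 3.58.1 fit in R 4.3.3 of the 6 location means, with eBayes (trended), two-sided p-values and Benjamini-Hochberg adjustment over 34945 probe sets at 0.05. The contrast was the low A mean minus the mean of the low B and low C means. The fit was tested on simulated data. The markers, the 42 gene lists and the rule for named genes were chosen with earlier results of these data known. The rule took every probe set of 4 marker genes, the 12 highest and 12 lowest called genes whose mice lay apart (7 qualified as lower), and the 3 members of each list with the smallest p. Alternatives covered the samples fitted, moderation, weights, normalization, filters, thresholds, mouse number as a block and leaving out each low mouse. Mouse numbers did not pair mice: correlations of deviations between same-numbered low mice ran from -0.32 to 0.206. Tables and figures used Python 3.11.15, pandas 2.3.3 and matplotlib 3.10.9.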

Additional observations from a re-analysis of the deposited data

Results flagged for a closer look

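Among the 118 probe sets checked in the 6 low B and C mice, and the 24 called ones also checked in the 9 high mice, 8 held a mouse far from the rest of its group by Dixon's test, which chance gives in about 1 group in 20. Of these, 2 were sex-biased genes in low B mouse 2, at 11.79 for Sult3a1 and 4.82 for Hsd3b5. In called probe sets the mice were low C mouse 2 at 8.72 for Echdc2, high A mouse 1 at 4.76 for Mtmr2 and high B mouse 1 at 5.72 for Abhd18; each lay outside the range of the low A mice. The other values were low B mouse 3 at 3.87 for the Ube2v2 probe set 1429132_at and at 6.08 for Nme4, and low C mouse 3 at 6.95 for Hmox1.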

How the results depend on the processing

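With 1 location against 2 and 3 mice each, counts of calls moved with the setting, while no called probe set changed sign in any alternative and 6 of 24, from 5 genes (Abhd18, Pgap6, 2610005L07Rik, Bach1 and Ube2v2), kept their call in every alternative that tested them. Array weights gave 139 calls for A against B and C, in place of 24, with 101 against B and 55 against C. The 9 low arrays alone gave 12 and, against C, 8; 17 of the 24 lost their call there. With 1 probe set per gene the counts were 10, 9 and 3, and at an adjusted p under 0.01 they were 10, 10 and 7. Leaving out single low mice gave 11 to 32 calls for A against B and C, 9 to 36 against B, 7 to 27 against C, and 0 to 9 for B against C. For B against C, leaving out low A1 and low B2 together gave 9. With mouse number as a replicate block, though the numbers did not pair the mice, the counts were 21, 18 and 16, and 4 for B against C in place of 2. The Spg7 probe set 1441585_at, at -0.02, turned to 0.00 with array weights, and lay between -0.06 and 0.03 without single mice, at 0.01 without low A3 and 0.03 without low B2. Of 462 list medians under alternatives 49 moved by more than the spread between low A mice. The causes of these shifts were not tested. No detection calls were used, so values near the floor, such as Abhd18 in low A, may understate differences.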
